A study of Caenorhabditis elegans with 2 samples.

Results

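The genes described here encode subunits and assembly factors of oxidative phosphorylation in the nematode Caenorhabditis elegans. They were the protein-coding genes of the Ensembl annotation of WBcel235 (the same assembly as ce11) whose names begin with nuo, cox or atp and a number, together with named subunits of complexes I, II and III and cytochrome c. This rule gave 41 genes of 19973 protein-coding genes on the 6 nuclear chromosomes. The data were ChIP-seq (sequencing of DNA recovered with an antibody) from whole young adults of pooled males and females, which cannot tell tissues apart. The strain, OP598, carries unc-119(tm4063) on chromosome III and the transgene wgIs598, which expresses T26A5.8 with a GFP-FLAG tag at its C-terminus. Worms were collected 63 h after synchronization as starved first-stage larvae, chromatin was sheared by sonication, and an antibody against GFP was used. There was 1 group with 2 biological replicates, numbered 3 and 4, so that no condition was compared with another.

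Oxidative phosphorylation takes place at the inner mitochondrial membrane. Complexes I and II pass electrons from NADH and succinate to ubiquinone, complex III passes them to cytochrome c, and complex IV (cytochrome c oxidase) passes them to oxygen. Complexes I, III and IV pump protons as they do so, and complex V (ATP synthase) uses the proton gradient to make ATP. Most subunits are encoded by nuclear genes, and the genes below are all nuclear.

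A summit, the point of highest signal in a region, was placed at a gene if it fell in 1 of 3 windows. The start window took in 1000 bp before and 200 bp after the annotated start, the end window 200 bp before and 500 bp after the annotated end, and the body lay between them. The authors deposited a thresholded list of regions that passed a reproducibility procedure, and lists of 30000 candidate entries, background included, for each replicate and for the pooled replicates. The signal is the authors' own enrichment value, with no stated scale, and is used only to rank entries within a list. Thresholded regions had signals of 87.7 to 393.9 (median 105.6), and pooled entries of 19.3 to 398.6 (median 26.8). Ranks count from 1 at the highest signal. Read depth is unknown, since the lists give no counts.

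The DNA under the summits of the thresholded regions at cox-6A, cox-5A and atp-2 is shown because these regions stand for the 3 settings met among the genes: beside a small RNA gene, upstream of a gene with no neighbour close by, and just past a gene's end. The sequences are from the RefSeq genome of WBcel235, forward strand, 5′ to 3′, and the capitals mark the 11 bases centred on the summit. They cover chrIII:5080877-5080977, chrIII:12905138-12905238 and chrIII:5230631-5230731.
cox-6A: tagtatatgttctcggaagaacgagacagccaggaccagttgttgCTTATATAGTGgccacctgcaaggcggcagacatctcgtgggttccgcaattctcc
cox-5A: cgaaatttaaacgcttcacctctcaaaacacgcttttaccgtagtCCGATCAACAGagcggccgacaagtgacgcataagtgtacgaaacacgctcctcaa
atp-2: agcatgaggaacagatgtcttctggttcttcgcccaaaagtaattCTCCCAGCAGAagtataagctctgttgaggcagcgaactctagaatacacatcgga
The summits at cox-6A and cox-5A are intergenic, though the first bases printed for cox-6A lie in the snRNA gene F54D8.7, and the summit at atp-2 is in coding sequence of the next gene, prmt-5. Within 50 bases to either side of the summit the G and C content was 51.5% at cox-6A, 47.5% at cox-5A and 45.5% at atp-2. In windows of the same length 400 bp away it was 27.2%, 45.5% and 26.7%. At the summits of atp-1, cox-4 and cox-5B, whose sequences are not shown, it was 46.5%, 41.6% and 33.7%. In the windows 400 bp from these it was 31.2%, 36.1% and 30.7%. The median over all thresholded summits was 47.5% (quartiles 41.6% and 52.5%), and over all pooled entries 42.6%.

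Among the listed genes, thresholded summits lay at 4 of 7 complex IV subunit genes and 2 of 5 complex V genes. The list takes genes by name and leaves out others of the pathway, such as the complex I subunit genes nduf-2.2 and nduf-9, which had thresholded summits. Of the 41 genes, 6 had a thresholded summit (14.6%, exact 95% binomial interval 5.57% to 29.2%), against 2.36% of all protein-coding genes. The genes were the complex IV subunits cox-4, cox-5A, cox-5B and cox-6A and the complex V subunits atp-1 and atp-2. The start window held a summit at 2 genes, cox-5A and cox-6A (4.88%, against 0.806% of all genes). The end window held a summit at 4 genes, atp-1, atp-2, cox-4 and cox-5B (9.76%, against 0.996%). No body held one, which allows up to 8.6% by the same interval, against 0.641% of all genes. Leaving aside summits within 200 bp of a tRNA, snoRNA or snRNA gene, 5 genes remained (12.2%, against 1.57%), since only the summit at cox-6A lay that close to one. The intervals cover the counting of genes only, and no test of the list was made because its members were chosen with results of these data known.

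**Figure D1:**
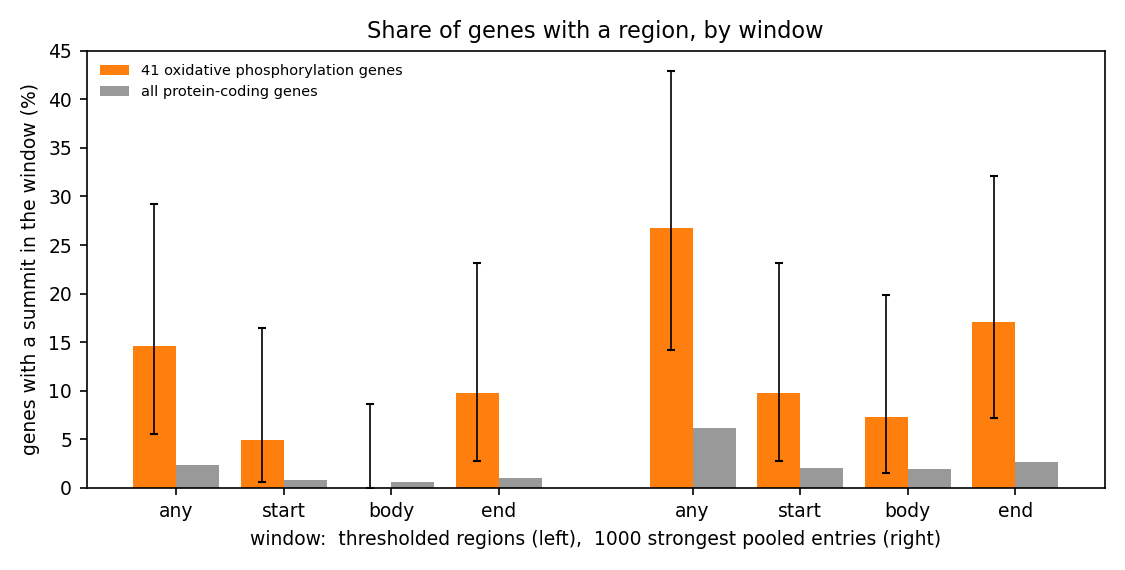
Share of the 41 oxidative phosphorylation genes and of all 19973 protein-coding genes (percent) with a summit in each window, for the thresholded list and for the 1000 strongest pooled entries. Error bars are the exact 95% binomial intervals of the 41 genes. The share at the end window is 9.76% against 0.996% for thresholded summits and 17.1% against 2.64% for the strongest pooled entries.

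The strongest of these regions was at the end of atp-1, which encodes the alpha subunit of ATP synthase. It lay on chromosome I, 12654646 to 12655005 (ce11), with its summit in intergenic sequence 171 bp past the end of the gene. Its signal was 152.9, rank 50 in the thresholded list, and the overlapping entries had 97.2 in replicate 3 and 61.3 in replicate 4. Those entries ranked 33 and 90 of 30000, so both libraries placed it high. The gene T26E3.7 runs towards atp-1 from the other side, 358 bp away, and the summit was also 188 bp past its end. The position alone does not assign the summit to either gene.

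The beta subunit gene, atp-2, had its region on chromosome III, 5230501 to 5230860. The summit was 145 bp past the end of atp-2, and 126 bp inside prmt-5, an arginine methyltransferase gene. The genes are 18 bp apart and run on the same strand. The signal was 97.8, rank 241 in the thresholded list. Replicate 3 had 75.7 at rank 79 and replicate 4 had 38.7 at rank 471, so that this region stood much higher in the first list than in the second. Its summit lies in the window printed above for atp-2.

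Among the complex IV subunits, cox-6A had the highest signal. Its region on chromosome III, 5080747 to 5081106, had a signal of 139.0, rank 73, with 67.4 at rank 124 in replicate 3 and 75.4 at rank 34 in replicate 4. Its summit lay 797 bp upstream of cox-6A, but only 29 bp upstream of the start of the snRNA gene F54D8.7 (5080798 to 5080898, reverse strand). It was also 266 bp past the end of alh-1, an aldehyde dehydrogenase gene. It is the only one of the 6 regions with a small RNA gene this near, and the part of that gene in the signal was not tested.

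The region upstream of cox-5A stood by itself. It lay on chromosome III, 12905008 to 12905367, with its summit 303 bp upstream of the start. Its signal was 120.4, rank 113, with 65.0 at rank 141 in replicate 3 and 44.9 at rank 287 in replicate 4. No other gene had the summit in a window, the gene upstream (unc-71) lay 13752 bp away, and the nearest small RNA gene was 104235 bp from the summit. This gene also had pooled entries of signal 72.4 in its body and 45.5 in its end window, 248 bp past the end.

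The region at cox-5B was past the end of the gene and in no window of another. It lay on chromosome I, 9790039 to 9790398, with its summit 169 bp past the end, and the next gene, hrdl-1, was 3705 bp away. Its thresholded signal was 116.4, rank 126, but the pooled entry there had only 81.1, below the lowest signal of the thresholded list. Replicate 3 had 40.9 at rank 662, with a summit 98 bp from the thresholded one, and replicate 4 had 47.4 at rank 227, with a summit 2 bp from it. The libraries thus differed in both rank and position at this gene.

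The region at cox-4 was the weakest of the 6. It lay on chromosome I, 13657867 to 13658226, with a signal of 95.5, rank 272 in the thresholded list. Replicate 3 had 41.8 at rank 612 and replicate 4 placed it far higher, with 60.1, the opposite order of libraries to that at atp-2. The summit was 124 bp past the end of cox-4 and 120 bp before the end of sac-2, inside coding sequence of that gene. Both genes run towards each other and are 3 bp apart, so the summit lay in the end windows of both.

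**Figure D2:**
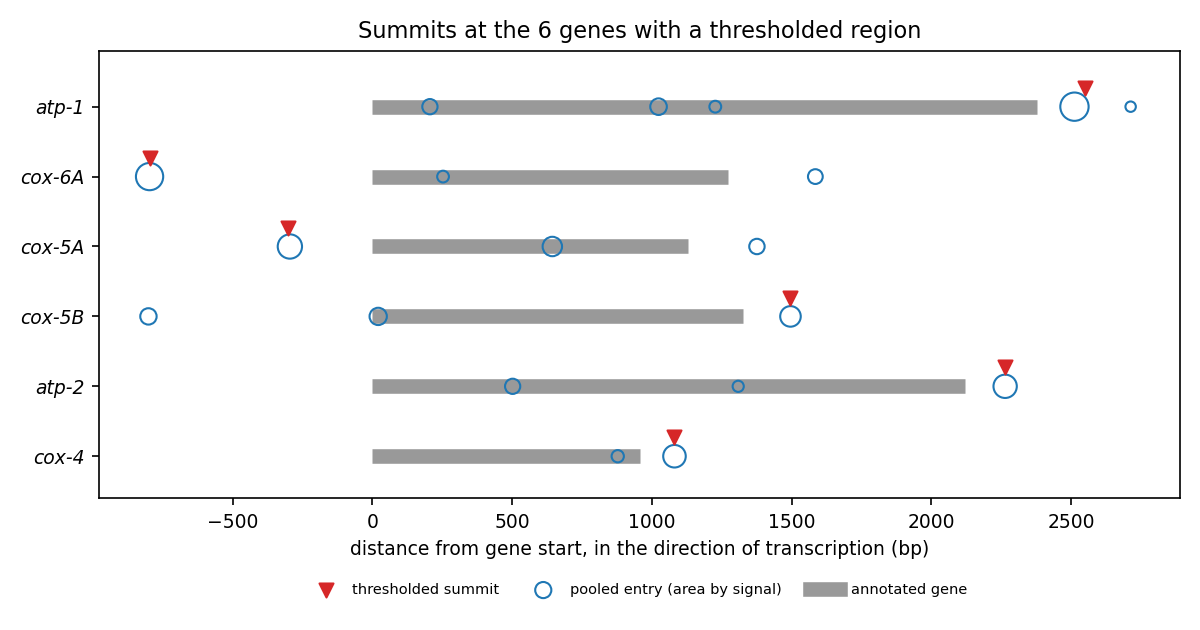
Position of each summit relative to the 6 genes with a thresholded region, in bp from the gene start in the direction of transcription. Grey bars are the annotated genes, red triangles thresholded summits, and blue circles pooled entries with area by signal. Thresholded summits lie past the gene end at atp-1, atp-2, cox-4 and cox-5B and upstream of the start at cox-5A and cox-6A.

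Chromosomes I and III each had 3 of these 6 genes, of 11 and 10 genes of the list there. The other 20 genes, on II, IV, V and X, had no thresholded summit, against 2.36% of protein-coding genes over all 6 chromosomes. None among 20 is close to that share, and a difference between chromosomes was not tested. The deposited −log10 q-value was 2.40 for 4 of the 6 regions, 2.26 for cox-4 and 2.21 for atp-2. Summits in the pooled list lay within 8 bp of the thresholded one except at atp-1, where they were 37 bp apart.

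Each replicate list was also read on its own, by its 1000 entries of highest signal. In replicate 3 these lay at 11 of the 41 genes (26.8%, against 5.96% of all protein-coding genes), and in replicate 4 at 9 (22%, against 6.06%). Both libraries had one at 7 genes (17.1%, against 3.09%), namely the 6 with a thresholded region and cyc-2.1. Replicate 3 alone had such an entry at atp-5, cox-17, isp-1 and ucr-2.3, and replicate 4 alone at cox-6B and nuo-4. The thresholded and pooled lists were made from these same libraries, so the replicate ranks are not independent of them.

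**Figure D3:**
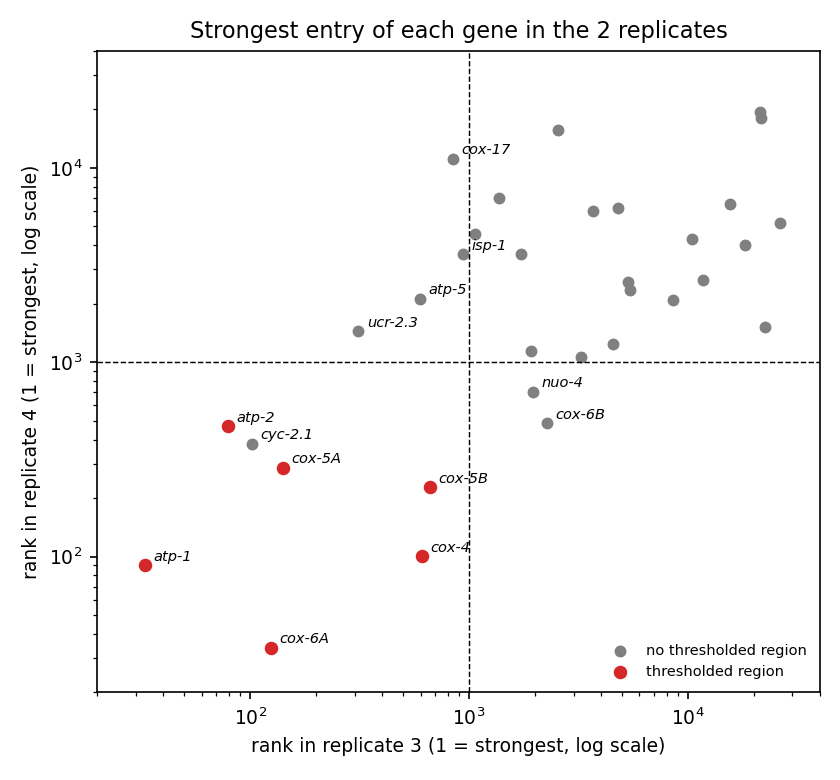
Rank of the strongest entry at each gene in the list of replicate 3 (horizontal, log scale) against that in replicate 4 (vertical, log scale), rank 1 being the highest signal, for the 33 genes with an entry in both. Red points are genes with a thresholded region. Dashed lines mark rank 1000, and the 6 genes with a thresholded region and cyc-2.1 lie within it in both libraries.

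The pooled list reached more genes. Its 1000 strongest entries, with a signal of 59.7 or more, lay at 11 of the 41 genes (26.8%, against 6.13% of all protein-coding genes). Beside the 6 genes above these were atp-5, nuo-4, nuo-5, cyc-2.1 and ucr-2.3. They were in the start window at 4 genes (9.76%, against 2.01%), in the body at 3 (7.32%, against 1.9%) and in the end window at 7 (17.1%, against 2.64%). Pooled entries of any signal lay at 35 genes (85.4%, against 65.8%), and in the end window at 28 (68.3%, against 27.3%). Among genes with an entry, the median of the strongest signal was 42.5 for the 35 genes and 32.6 for 13147 protein-coding genes. The strongest entry was in the end window for 17 of 35 genes (48.6%), against 24.7% of the 13147. An end window can also hold parts of neighbouring genes, so position alone does not assign such an entry to the gene. The genes of the list were slightly shorter, with a median length of 1749 bp against 2027 bp over all, and the part of length in these counts was not tested.

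Complex V had pooled entries of some signal at all 5 of its genes on the list. Such entries lay at 65.8% of all protein-coding genes and 85.4% of the 41 genes, so 5 of 5 does not set complex V apart. The list takes genes by name, so this is no count over the whole complex. After atp-1 and atp-2 came atp-5, a stalk subunit gene, with a signal of 66.5 at rank 704 of 30000 and a summit 216 bp past its end. Replicate 3 had 42.1 there and replicate 4 had 26.4, and the summit was also 192 bp upstream of mboa-2. The gene atp-4, for another stalk subunit, had 45.5 with its summit 72 bp inside its start, with 31.6 in replicate 3 and 23.1 in replicate 4. That summit was also 168 bp past the end of alh-4 and 779 bp upstream of T05H4.11. The gene for the oligomycin sensitivity-conferring subunit, atp-3, had 32.9, close to the median over all genes with an entry. The summit at atp-3 was 164 bp past its end, in coding sequence of F27C1.6.

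The other complex IV subunit genes had lower signals than the 4 with a thresholded region. The gene cox-6B is annotated as 87197 bp long and held 21 pooled entries. Its strongest, of signal 57.6, was 69170 bp from its start in an intron and also 154 bp upstream of swsn-3. Replicate 3 had 23.8 there and replicate 4 had 38.4. The genes cox-7C and cox-6C had 42.1 and 26.6, both in the end window, 312 and 144 bp past the end. The summit at cox-7C was in coding sequence of F26E4.7. The median of the strongest pooled signal over the 7 subunit genes was 81.1.

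The 8 complex IV assembly genes had no thresholded summit and none of the 1000 strongest pooled entries. Over all protein-coding genes the shares were only 2.36% and 6.13%, so none among 8 does not set the assembly genes apart. The strongest entries of the assembly genes had signals of 24.3 to 53.3 (median 34.5). The highest was at cox-17, whose product delivers copper, 131 bp inside its start. Replicate 3 had 38.4 there at rank 845, and replicate 4 had 16.7 at only rank 11151 of 30000. The summit was also 234 bp past the end of ubc-20 and 986 bp upstream of sec-20. The heme A synthase gene cox-15 had 39.7 in its body and the insertase gene cox-18 had 28.2 in its body. The gene cox-16 had 34.5 in its end window, in an intron of C24G6.8. Another copper delivery gene, cox-11, had 24.3 at its start, in coding sequence of JC8.4. The heme O synthase gene cox-10 and the genes cox-14 and cox-19 had no pooled entry. These roles are known chiefly from yeast and human, and the difference between the subunit and assembly genes was not tested.

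Complex I had 8 genes on the list and none with a thresholded summit, against 2.36% of all protein-coding genes. None among 8 is close to that share. Complex I genes with other names were outside the list, and nduf-2.2 and nduf-9, described below, did have a thresholded summit. The highest signal of the 8 genes was 65.5 (rank 728) at nuo-4, with 30.5 in replicate 3 and 34.4 in replicate 4. The summit at nuo-4 was in intergenic sequence 190 bp past the end, in no window of another gene. The gene nuo-5, for a large iron-sulfur subunit, had 63.2 in an intron 109 bp inside its start, with 27.3 and 30.8 in replicates 3 and 4. That summit was also 214 bp past the end of Y45G12B.2. At nuo-3 the signal was 54.6, 695 bp upstream of the start and inside coding sequence of arl-8, with 27.0 and 31.4. At gas-1, for a core subunit next to the quinone site, it was 50.7 in coding sequence, with 33.6 and 17.3. The flavoprotein gene nuo-1 had 41.6 in its body. The gene nuo-6 had 25.2 in its end window, in the 3′ untranslated region of cutl-6, while lpd-5 and nuo-2 had no pooled entry.

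Complex II had the lowest median signal of the complexes. The strongest pooled entries at its 5 genes had signals of 22.3 to 40.7, with a median of 25.9 against 32.6 over all genes with an entry. They were 40.7 and 22.3 at the flavoprotein genes sdha-2 and sdha-1, and 23.3 at the iron-sulfur subunit gene sdhb-1. At the membrane anchor genes mev-1 and sdhd-1 they were 37.6 and 25.9. The summit at sdha-2 was 277 bp past its end, in coding sequence of spcs-1. No complex II gene had one of the 1000 strongest entries, against 6.13% of all protein-coding genes, and none among 5 is close to that share.

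Complex III had 1 of its 6 listed genes among the 1000 strongest entries (6.13% of all protein-coding genes), namely ucr-2.3, for a core protein. Its highest pooled signal was 75.2 in its coding sequence, 511 bp from the start, with 40.7 in replicate 3 and 28.9 in replicate 4. That summit was also 637 bp upstream of T24C4.5. A further entry of 69.0 lay 300 bp past the end of ucr-2.3. The related genes ucr-2.2 and ucr-2.1 had 44.6 and 42.5, both in coding sequence. The summit at ucr-2.2 was also 391 bp past the end of col-41. The core protein gene ucr-1 had 41.9 at 203 bp past its end, in an exon of F56D2.9. The Rieske iron-sulfur protein gene isp-1 had 42.0 and the cytochrome c1 gene cyc-1 had 38.0, both in the end window. The first summit was 497 bp past the end, in coding sequence of sph-1. The second was 194 bp past the end, in the 3′ untranslated region of C54G4.7. In replicate 4, the entry at ucr-2.1 had 12.9 at rank 21774, deep in the background of that list, against 28.7 at rank 2540 in replicate 3.

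Of the pair of cytochrome c genes, 1 had one of the 1000 strongest pooled entries and the other had no pooled entry. Over all protein-coding genes 6.13% had one of the 1000 strongest and 65.8% an entry of any signal. A single pair cannot show a difference beyond those shares. The gene cyc-2.1 had a pooled entry of 73.3 in an intron, 445 bp from the start and also 735 bp upstream of tctn-1. There replicate 3 had 70.4 at rank 102 and replicate 4 had no overlapping entry. Replicate 4 had its strongest entry at cyc-2.1, 41.4 at rank 381, in the start window, so the libraries did not place the signal at the same point. A thresholded region of signal 118.6 (chromosome IV, 4749882 to 4750241) had its summit 1050 bp upstream of cyc-2.1, 50 bp outside the start window. The gene cyc-2.2 had no entry in the pooled list or in either replicate list, and the same held for cox-14 and cox-19.

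**Figure D4:**
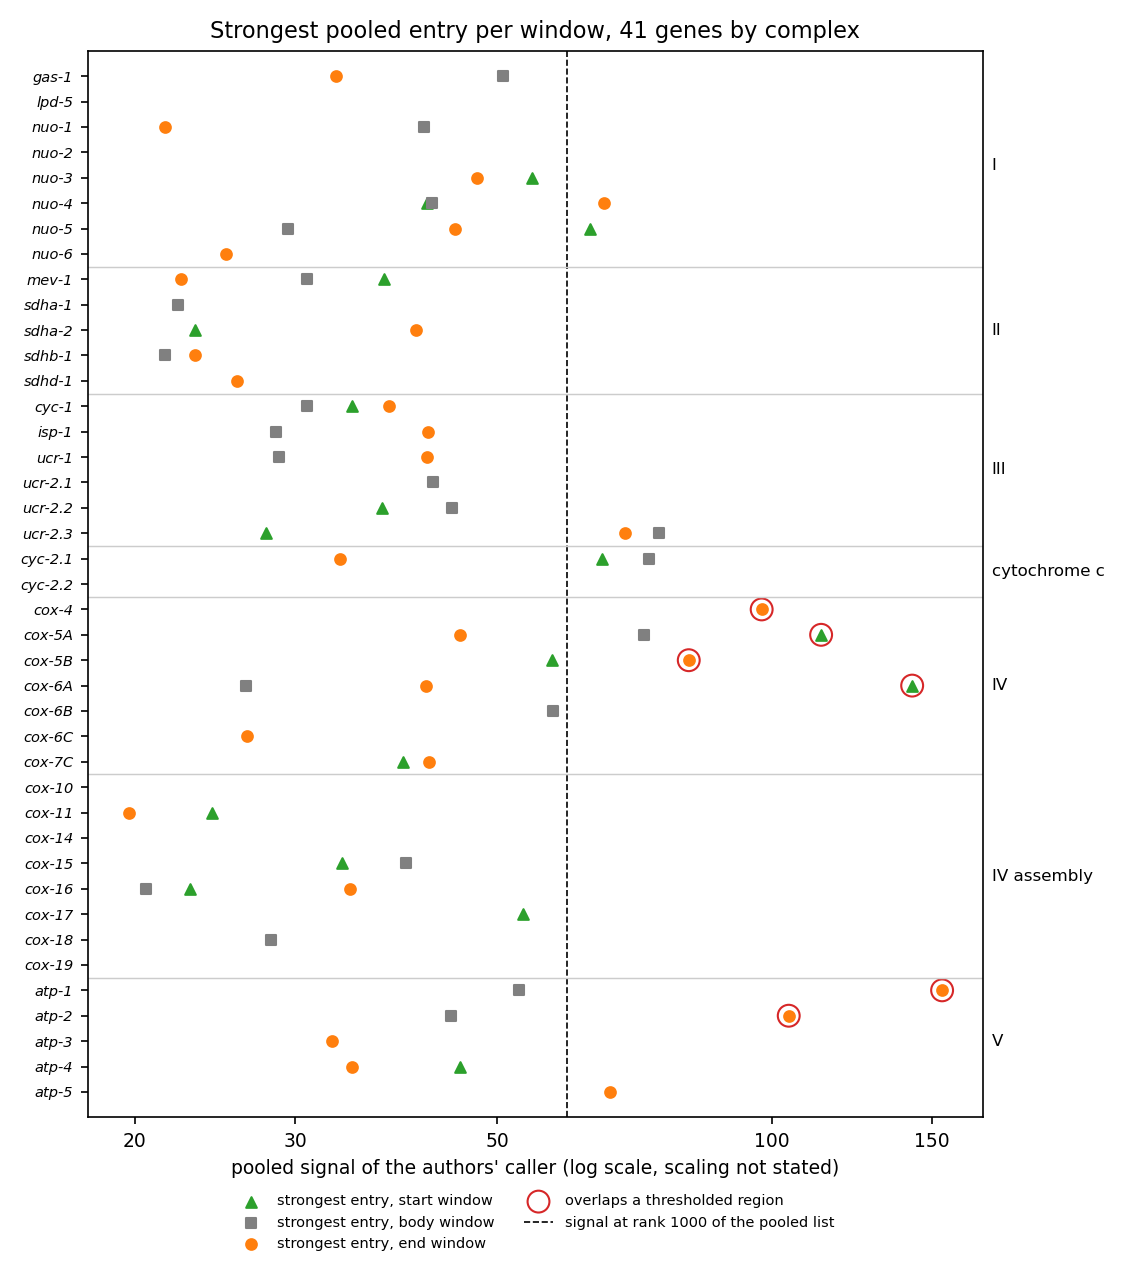
Strongest pooled signal (log scale) in the start window, body and end window of each gene, grouped by complex. The dashed line is the signal of rank 1000 (59.7), and red rings mark entries that overlap a thresholded region. The highest signals are 153.8 at atp-1 and 142.6 at cox-6A, and no gene of complex II passes 40.7.

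The end window reaches further past the annotated end than before it, so most of its length lies downstream. The 28 genes with a pooled entry in that window had 34 entries, of which 31 (91.2%) were downstream of the annotated end, against 80.3% of the entries over all protein-coding genes. Their median distance was 180 bp past the end (quartiles 126 and 286 bp). Over all protein-coding genes the median was 201 bp (quartiles 58 and 331 bp). For the 7 of these entries among the 1000 strongest the median was 171 bp and the range 124 to 300 bp, and for all 536 such entries the median was 173 bp (quartiles 88 and 275 bp). For the 4 thresholded summits the median was 157 bp, against 166 bp for all 200. Between 100 and 250 bp past the end, an interval chosen after the values were seen, lay 16 of 34 entries (47.1%), against 28.9% of the 6060 entries over all genes. The medians of the strongest entries thus differed little between these genes and the rest.

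**Figure D5:**
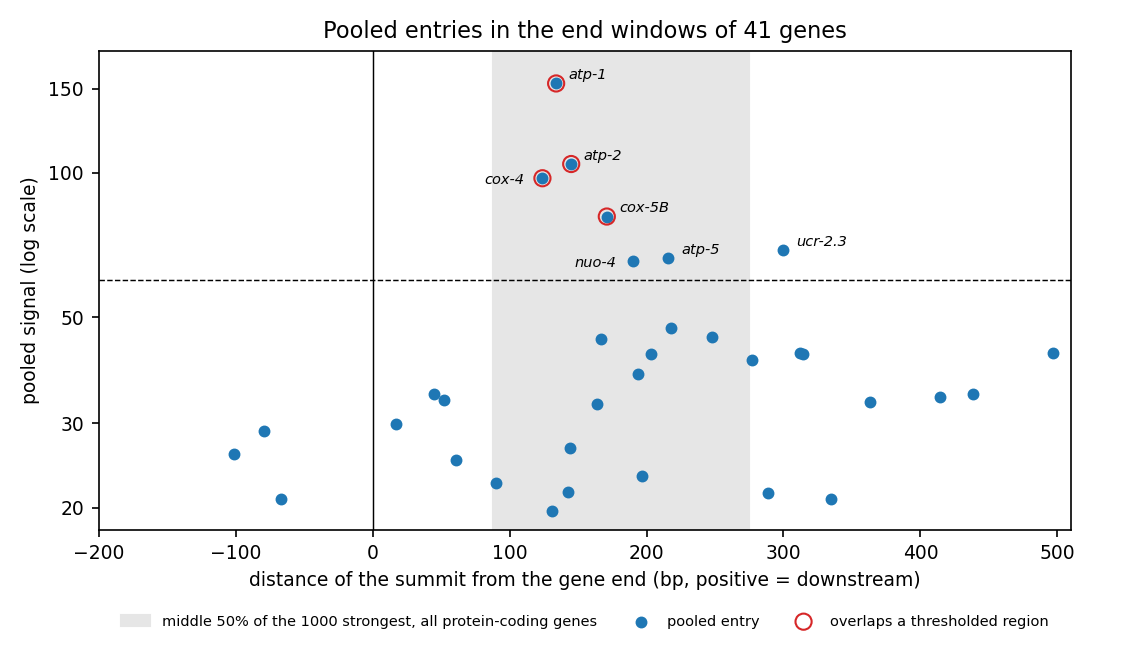
Distance of each pooled summit in an end window from the annotated gene end (bp, positive downstream) against its pooled signal (log scale). The shaded band runs between the quartiles of the 1000 strongest entries over all protein-coding genes, 88 to 275 bp, the dashed line is the signal of rank 1000 (59.7), and red rings mark entries that overlap a thresholded region.

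Thresholded regions also lay upstream of 3 start windows. Beside that at cyc-2.1, a region of signal 89.8 had its summit 1467 bp upstream of nuo-1, 467 bp outside the window, and a region of 97.1 lay 1726 bp upstream of cox-10, 86 bp from a tRNA gene. On the other side of the same limit, the summit at cox-6A was 797 bp upstream and that at cox-5A 303 bp upstream. With a start window of 2000 bp upstream and 500 bp downstream, listed genes with a thresholded summit there numbered 5 instead of 2. The added genes were cox-10, cyc-2.1 and nuo-1, and the share of all protein-coding genes moved from 0.806% to 1.34%. Whether other protein-coding genes lie nearer to the summits at these 3 genes was not tested, so position alone does not assign them.

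Hexamers chosen with earlier results of these data known were searched on both strands within 50 bases to either side of each summit. The hexamer GCGCAC was in none of the 6 regions, against 7.32% of all thresholded regions and 2.52% of pooled entries. ACCACT was also in none, against 18.4% of thresholded regions and 4.51% of pooled entries. CGAACC was in 1 region, that at cox-4, against 15.2% and 3.11%. With only 6 regions, counts of none and 1 do not set them apart from these shares. An absent match says only that these letters are not in this window.

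Other nuclear genes of the pathway, from a list that was also chosen with results of these data known, numbered 49. Of these, 4 had a thresholded summit (8.16%, against 2.36% of all protein-coding genes) and 5 one of the 1000 strongest pooled entries (10.2%, against 6.13%). The ADP/ATP carrier gene ant-1.1 had the highest signal, 221.2, with 103.9 in replicate 3 and 135.0 in replicate 4, 93 bp past its end. The complex I subunit gene nduf-2.2 had 139.3 at 790 bp upstream of its start (73.2 and 54.5), and it lies 2365 bp from T26A5.8, the gene carried with the tag by the transgene. The part of the transgene in that signal was not tested, and the nearest of the 41 genes, nuo-4, was 693169 bp from T26A5.8. The complex I assembly factor gene nuaf-1 had 119.2 in its body (69.0 and 62.7), and nduf-9 had 89.6 at 671 bp upstream of its start (61.0 and 27.8).

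Set beside other gene groups counted in the same windows, the 41 genes had a share with thresholded summits (14.6%) between those of 78 cytosolic ribosomal protein genes (26.9%) and of 33 proteasome genes (6.06%) or 70 mitochondrial ribosomal protein genes (5.71%). In the end window the shares were 9.76% for the oxidative phosphorylation genes, 16.7% for the cytosolic ribosomal, 6.06% for the proteasome and 1.43% for the mitochondrial ribosomal protein genes. By the 1000 strongest pooled entries the order was cytosolic ribosomal protein genes at 46.2%, proteasome genes at 39.4%, the oxidative phosphorylation genes at 26.8% and mitochondrial ribosomal protein genes at 12.9%. The differences between these groups were not tested.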

How the data were processed

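Signals and q-values were used from region lists on build ce11. The signal of each region is the enrichment value that the authors' caller gave and deposited, with a scaling that is not stated. The −log10 q-value of each region is also as the authors deposited it. Per the deposited notes, candidate lists with background were made for each replicate and for pooled alignments with a control, and the thresholded list came from these by the irreproducible discovery rate procedure. No aligner or caller is named in these lists, labels or notes. Control libraries and reads were not analysed here. The ce10 thresholded list, with 609 regions and a lowest signal of 73.9, was used only for its length.

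Genes came from Ensembl release 115, and 0 regions ran past a chromosome end. Summits were placed in windows with Python 3.11.15, pandas 2.3.3, numpy 2.4.6 and scipy 1.17.1, and the placement was tested on simulated positions. Replicate values are those of the overlapping entry with the closest summit. Intervals are exact Clopper-Pearson intervals. The text names each gene with a thresholded summit, then up to 12 others of highest pooled signal, then the rest by complex. The members, lists and windows were chosen with earlier results of these data known. The labels call the replicates biological and say no more of how the cultures were separated. Other windows, cut-offs, small RNA distances and gene names and single replicates were tried as alternatives.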

Additional observations from a re-analysis of the deposited data

How the results depend on the processing

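Read depth is unknown, so no limit of detection can be given. The count of genes with a thresholded summit in any window, 6, stayed between 4 and 9 over 11 alternatives. The share of all protein-coding genes moved with it, from 2.36% as reported to 1.2% where 4 were counted and 2.8% where 9 were. The start window count moved from 2 to 1 with a window of 500 bp upstream and 100 bp downstream (0.486% of all protein-coding genes, against 0.806% as reported) and to 5 with 2000 and 500 bp (1.34%), which added cox-10, cyc-2.1 and nuo-1. With only the 184 strongest thresholded regions the end window count moved from 4 to 2 (atp-1 and cox-5B; all genes 0.996% to 0.486%), and the count away from small RNA genes from 5 to 3 (all genes 1.57% to 0.691%). The count of genes with a strong pooled entry moved from 11 to 5 with as many of the strongest entries as the thresholded list has and to 17 with the 3000 strongest, while the share of all genes moved from 6.13% to 2.28% and 15.3%. The other end windows, small RNA distances and RNA classes, placement by overlap and RefSeq names, which gave the same 41 genes, left each count within 1.5 times.

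With either replicate left out, and as many of the strongest entries of the other list taken, the counts ran from 5 to 6 (any window), 2 to 2 (start), 0 to 1 (body), 3 to 3 (end), 4 to 5 (away from small RNA genes) and 9 to 11 (strong entries). The shares of all protein-coding genes without replicate 3 were 2.41%, 0.771%, 0.636%, 1.08%, 1.64% and 6.06%, in the same order. Those without replicate 4 were 2.31%, 0.776%, 0.656%, 0.951%, 1.48% and 5.96%. Without replicate 3, atp-2 was lost. Without replicate 4, cox-4 and cox-5B were lost and cyc-2.1, whose entry was in the body (1 gene against 0), and ucr-2.3 were gained. Counts over as many of the strongest pooled entries as in the thresholded list on ce10 or ce11 were added after seeing the data. The first moved the body count from 0 to 3 (cox-5A, cyc-2.1 and ucr-2.3; all genes 0.641% to 1.08%), and no other count moved beyond 1.5 times. No paired analysis was possible because there is 1 group.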
